A study of Mus musculus with 30 samples.

Results

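The inducible heat shock chaperones were examined in the descending thoracic aorta of male mice with vascular Ehlers-Danlos syndrome (VEDS) and of their controls. The set held 10 of the 26253 genes listed by the deposited files, namely *Hspa1a*, *Hspa1b*, *Dnajb1*, *Hsph1*, *Hspb1*, *Hspa8*, *Hsp90aa1*, *Bag3*, *Hspe1* and *Hspd1*. These genes were chosen by name and by earlier results on these same libraries, in which chaperone transcripts were lower in untreated VEDS aortas and moved differently with hydralazine in VEDS and control aortas. The values behind those 2 contrasts are therefore given here as a description with no test. All 10 genes had enough counts to be tested in each of the 10 comparisons made.

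VEDS mice carried 1 missense allele of *Col3a1*, the type III collagen gene (labelled Het), and control mice were *Col3a1*+/+, on a shared C57BL/6J background. Of the 30 libraries, 6 came from untreated controls, 6 from untreated VEDS mice, 6 from controls and 6 from VEDS mice given hydralazine from birth at 32 mg/kg/day, and 3 each from VEDS mice given the same hydralazine plus bicalutamide at 50 mg/kg/day (HB) or spironolactone at 100 mg/kg/day (HS), both from day 21. Hydralazine is a vasodilator, bicalutamide blocks the androgen receptor, and spironolactone blocks the androgen and mineralocorticoid receptors. Collection was on day 60 for HB and HS, whereas the other groups mix day 30 and day 60 at 3 mice each. The age and extraction batch of a library are not labelled, so in the comparisons of HB or HS with untreated VEDS or hydralazine alone, the treatment and the age mix cannot be told apart.

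The heat shock response is the cell's answer to unfolded protein. Heat shock factor 1 (HSF1) trimerises, binds heat shock elements, which are inverted repeats of the unit GAA, and drives the transcription of chaperones within minutes of heat, mechanical handling or other protein stress. In vascular smooth muscle these chaperones also attend the actin cytoskeleton. The set covers several roles. *Hspa1a* and *Hspa1b* encode the stress-inducible HSP70, and *Hspa8* its constitutive relative. *Dnajb1* encodes a J-domain partner that delivers clients to HSP70, while *Hsph1* and *Bag3* encode nucleotide exchange factors that release them. *Hsp90aa1* encodes the inducible cytosolic HSP90, *Hspb1* a small heat shock protein that holds unfolding clients and binds actin, and *Hspd1* and *Hspe1* the chaperonin and cochaperonin of the mitochondrial matrix.

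The promoters are shown first as background to *Hspa1a* and *Hspa1b*, which moved together, and to *Hspe1* and *Hspd1*, which moved apart from the others. The part of these sequences in the levels was not tested. RefSeq start windows on GRCm38.p6, from 250 bases before to 50 after a transcript start, were found for 8 of the 10 genes. Below are the 250 bases upstream of *Hspa1a* (chr17:34972157-34972406, minus strand), of *Hspa1b* (chr17:34959239-34959488, minus strand) and of *Hspb1* (chr5:135887669-135887918, plus strand). Capitals mark a 2-unit heat shock element, searched as GAANNTTC or TTCNNGAA on both strands.
Hspa1a: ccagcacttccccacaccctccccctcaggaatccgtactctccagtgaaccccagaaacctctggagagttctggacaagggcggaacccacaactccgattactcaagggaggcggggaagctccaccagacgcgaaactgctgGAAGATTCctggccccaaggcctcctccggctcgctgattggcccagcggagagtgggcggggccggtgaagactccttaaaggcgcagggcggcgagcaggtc
Hspa1b: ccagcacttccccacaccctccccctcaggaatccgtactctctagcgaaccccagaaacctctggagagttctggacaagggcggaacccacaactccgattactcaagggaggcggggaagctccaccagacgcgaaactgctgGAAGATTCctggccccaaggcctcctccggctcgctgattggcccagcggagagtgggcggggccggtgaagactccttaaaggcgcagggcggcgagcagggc
Hspb1: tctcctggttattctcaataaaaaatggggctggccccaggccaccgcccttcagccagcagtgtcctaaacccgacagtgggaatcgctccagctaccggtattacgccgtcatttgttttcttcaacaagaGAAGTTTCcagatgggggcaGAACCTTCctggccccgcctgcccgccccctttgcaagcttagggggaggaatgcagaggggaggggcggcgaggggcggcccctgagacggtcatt

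The *Hspa1a* and *Hspa1b* windows were identical at 296 of 300 positions. Counted from 1 at the 5′ end of the window, with the *Hspa1a* base first, the differences were C44T, T47C, T249G and C276T, and none fell in the element 104 to 97 bases before the start. The coding sequences of the pair were 98.0% identical in the GENCODE M21 transcripts, and 38.1% of all 150-base stretches of the *Hspa1a* transcript occurred unchanged in *Hspa1b*. RSEM divides reads that match both genes between them, so the single levels of the pair are uncertain and their sum is given where it changes a count.

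*Hspe1* and *Hspd1* are divergent neighbours on chromosome 1 and share their element. It lies 89 to 72 bases before the *Hspe1* start and joins overlapping 3-unit matches (GAANNTTCNNGAA, either strand), here shown in capitals with 6 bases on either side (chr1:55088053-55088082, GRCm38.p6, plus strand).
Hspe1 and Hspd1: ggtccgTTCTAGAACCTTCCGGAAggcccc

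Of 32851 promoter windows in the RefSeq table, 198 (0.6%) held a 3-unit match and 4946 (15.1%) a 2-unit match. Among the chaperones, 3 of the 8 genes with a window held a 3-unit match, namely *Hspe1*, *Hspd1* and *Hsph1*, the last after its start. *Hspe1* and *Hspd1* count the same element. A 2-unit match was found in 7 of the 8, the exception being *Dnajb1*. These are counts of genes over 11 windows, so they are not like the shares of single windows. The matches describe letters in a window and no binding.

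**Figure D1:**
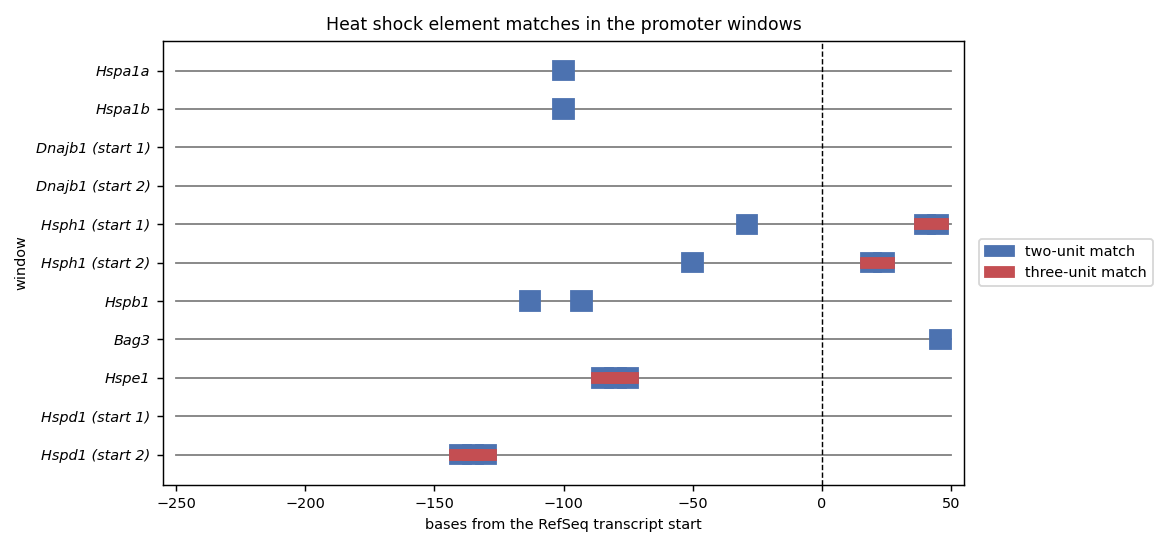
Positions of 2-unit (blue) and 3-unit (red) heat shock element matches in the 11 RefSeq windows of 8 chaperone genes, with bases from the transcript start on the x axis and 1 window per row. *Hspa1a* and *Hspa1b* hold the same match 104 to 97 bases before their starts, and *Dnajb1* holds none.

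Levels are CPM, the counts relative to library size, scaled with TMM factors over all 30 libraries unless TPM, a unit that also corrects for transcript length, is named. Library totals ran from 5517510 to 8293289 expected counts, and 15854 to 16486 genes had a count. Smooth muscle markers were abundant in each library, with *Myh11*, the smooth muscle myosin, between 5212 and 10630 CPM. *Col3a1* transcripts, which the missense allele does not remove, ranged from 4316 to 17690 CPM and do not check the genotype. The 7 fibroblast markers summed to 2444 to 7441 CPM. The summed level of 8 liver markers ran from 167 to 16810 CPM, and the 7 heart markers reached 871 CPM in control hydralazine replicate 5 and 840 CPM in HB replicate 2. Levels here are of bulk tissue, in which fewer cells of a type and less RNA per cell cannot be told apart. For a single number per library, log2(CPM + 0.5) of each chaperone was standardised over the libraries and averaged.

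Per length, *Hspa8* was the most abundant chaperone, with a median of 444 TPM over the 30 libraries. *Hspb1* and *Hsp90aa1* followed with medians of 86.7 and 86.6 TPM. The range of *Hsp90aa1* (67.6 to 107.5 TPM) lay within that of *Hspb1* (48.7 to 216 TPM). *Hspe1* and *Hspd1* stood at 38.4 and 32.2 TPM. The inducible pair was lower, at 16.5 TPM for *Hspa1a* and 16.2 TPM for *Hspa1b*, beside 15.6 TPM for *Hsph1*. *Dnajb1* at 9.41 TPM and *Bag3* at 6.48 TPM were the scarcest. The constitutive HSP70 transcript thus exceeded either inducible one, and the neighbours *Hspb1* and *Hsp90aa1*, and *Hspa1a*, *Hspa1b* and *Hsph1*, did not differ beyond the spread between libraries.

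Variability followed another order. *Hspa1b* spanned 21.9-fold between its lowest and highest library and *Hspa1a* 18.4-fold, which placed their standard deviations on the log2 scale above those of 96.3% and 95.7% of the 13534 genes with a mean of at least 1 CPM. *Hspb1* spanned 6.19-fold, *Hsph1* 3.87-fold and *Dnajb1* 3.08-fold. *Hspa8*, *Bag3* and *Hsp90aa1* spanned 2.19- to 2.66-fold. *Hspd1* spanned 1.87-fold and *Hspe1* slightly less, near the middle of all genes.

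**Figure D2:**
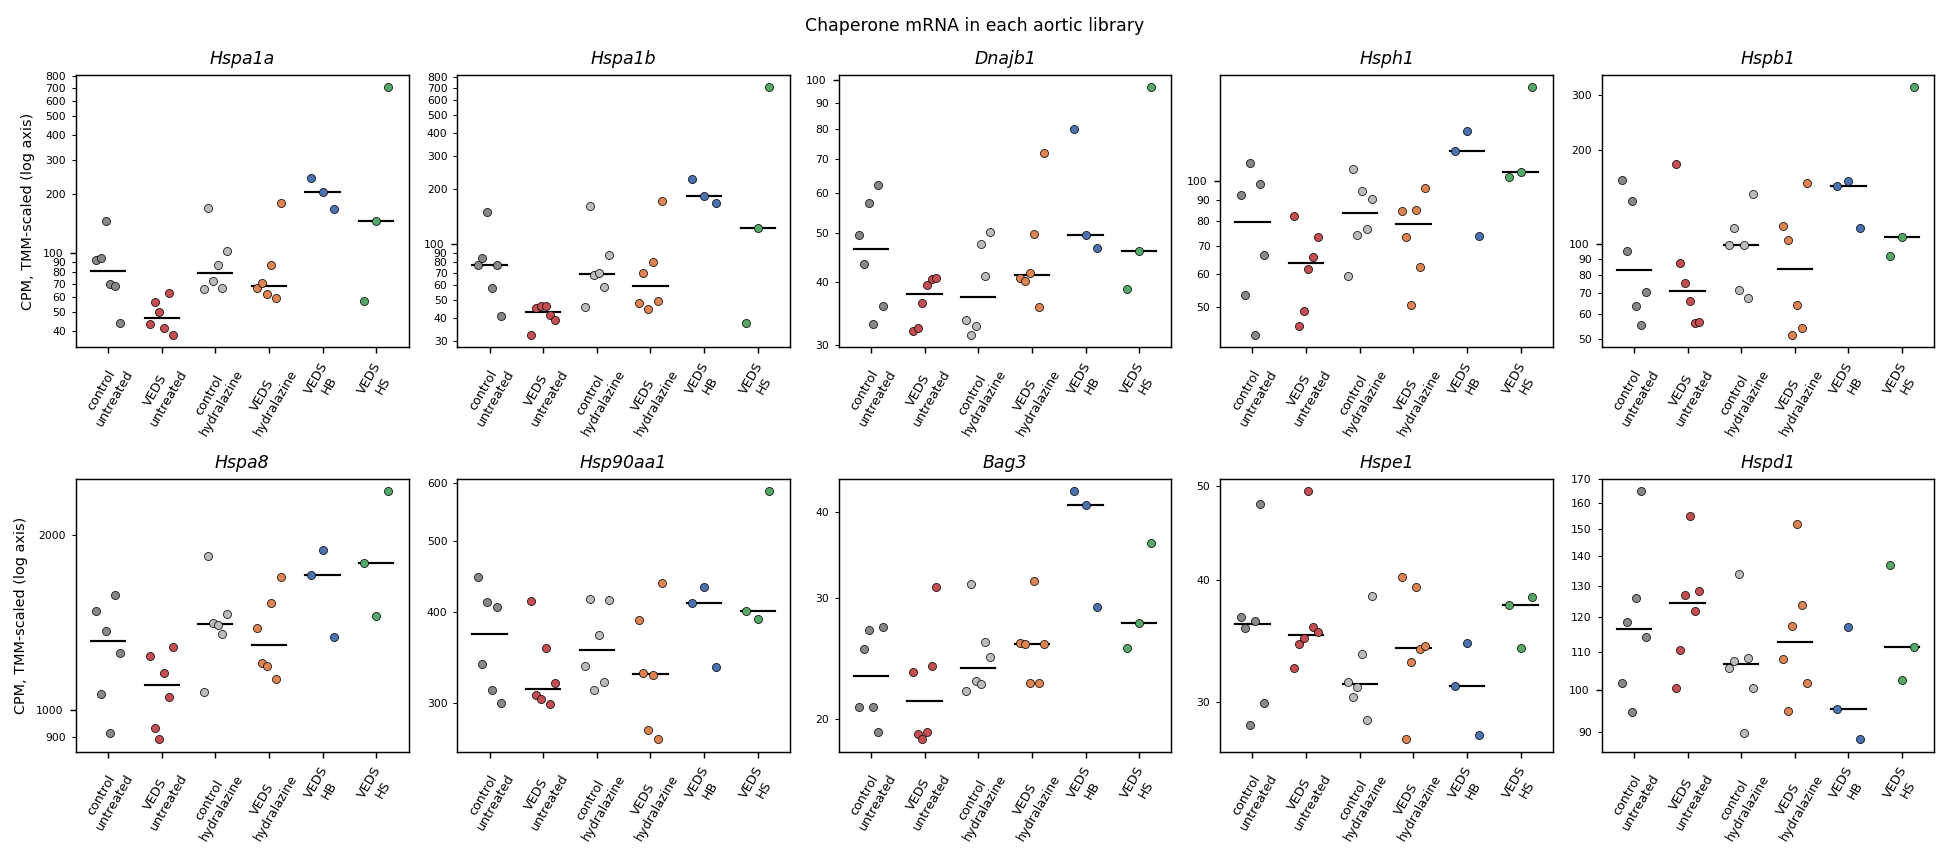
CPM of the 10 chaperones in each of the 30 libraries (points, in replicate order within a group) on log axes, with the group median as a bar. HS replicate 3 lies above all other libraries for 7 genes, and the 3 HB libraries lie above the 6 untreated VEDS libraries for *Hspa1a*, *Hspa1b*, *Dnajb1* and *Hspa8*.

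Single libraries stood apart as well as groups. *Hspa1b* stood at 37.7, 123 and 709 CPM in the HS libraries, the last being replicate 3. That library held 3.14 times the *Hspa1b* of the next library, HB replicate 1 at 225 CPM. It was also the highest of 30 for *Hspa1a* (705 CPM, 2.93 times the next), *Hspb1* (318 CPM, 1.77 times the next), *Hsp90aa1*, *Hspa8*, *Hsph1* and *Dnajb1*, the last 4 by 1.21 to 1.31 times. Being the highest for 7 of 10 chaperones compares with 12.3% of 13534 genes for which HS replicate 3 was the highest, a larger share than for any other library. The cytosolic chaperones varied together and *Hspa1a* and *Hspa1b* share reads, so these 7 are not separate observations. Against the untreated VEDS median, this library held 16.4 times as much *Hspa1b*, 15.0 times as much *Hspa1a* and 4.49 times as much *Hspb1*, but 1.10 times as much *Hspe1* and 0.896 times as much *Hspd1*. Its cytosolic chaperones were thus high, and its mitochondrial pair lay at the level of other libraries. Beside the chaperones, HS replicate 3 had the highest summed levels of 7 endothelial markers (1191 CPM) and of the 2 cold-inducible RNA-binding proteins (234 CPM) of all libraries, and the lowest of 19 endoplasmic reticulum chaperones (3235 CPM). The part of these shifts in its chaperone levels was not tested.

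The rest of the HS group did not share these levels. HS replicate 1 had 37.7 CPM of *Hspa1b* and 57.4 CPM of *Hspa1a*, within the range of untreated VEDS aortas, yet 1787 CPM of *Hspa8* and 102 CPM of *Hsph1*, above all 6 of them. HS replicate 2 had 123 CPM of *Hspa1b* and 147 CPM of *Hspa1a*. In the averaged standardised level HS replicate 3 stood first at 2.20, followed by HB replicate 2 at 1.07, HB replicate 1 at 1.00 and VEDS hydralazine replicate 6 at 0.72. The lowest were untreated VEDS replicates 2 and 3, at -0.86 and -0.78.

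2 hydralazine libraries stood apart within their groups for the inducible pair. *Hspa1b* was at 172 CPM in VEDS hydralazine replicate 6, where the other 5 libraries lay between 44.9 and 80.5 CPM. It was at 160 CPM in control hydralazine replicate 2, where the other 5 lay between 45.7 and 87.4 CPM. Both were also the highest of their group for *Hspa8* (1695 CPM in VEDS hydralazine replicate 6 and 1839 CPM in control hydralazine replicate 2), *Hsph1* (95.8 and 106 CPM) and *Hsp90aa1* (438 and 417 CPM). They differed for *Dnajb1*, of which VEDS hydralazine replicate 6 had the most in its group (71.7 CPM) and control hydralazine replicate 2 the least of all 30 libraries (31.5 CPM). VEDS hydralazine replicate 6 was also the highest of its group for *Hspb1* (157 CPM).

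**Figure D3:**
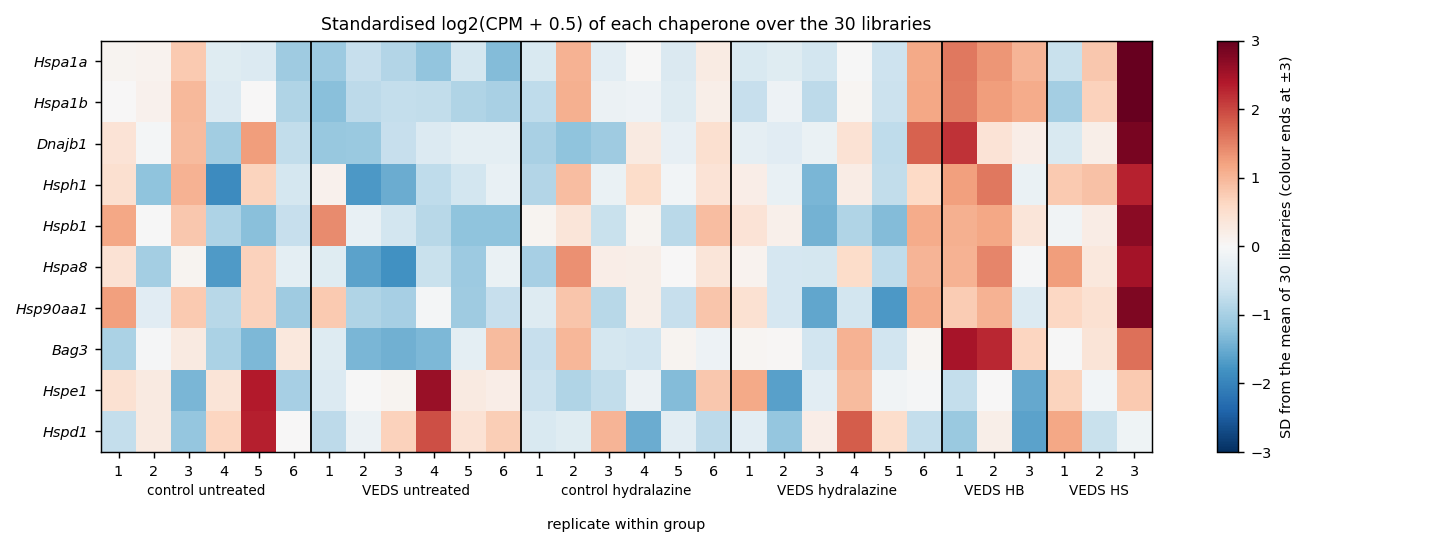
Standardised log2(CPM + 0.5) of each chaperone (rows) in the 30 libraries (columns, by group and replicate), in SD from the mean over libraries. HS replicate 3 is dark red for the cytosolic genes other than *Bag3*, which is highest in HB replicate 1. It is pale for *Hspe1* and *Hspd1*, which are instead highest in VEDS untreated replicate 4 and control untreated replicate 5.

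Over the 30 libraries the 8 cytosolic chaperones varied together, with Spearman's rho between 0.33 and 0.95 in their 28 pairs (median 0.61). The closest pairs were *Hspa1a* with *Hspa1b* (0.95), whose reads are partly shared, and *Hsph1* with *Hspa8* (0.93). *Hspb1* was closest to *Hsp90aa1* (0.82). *Hspe1* and *Hspd1* went with each other (0.56) but not with the rest, with rho from -0.68 to 0.23 in 16 pairs (median -0.19), 12 of them below 0. These correlations describe libraries that share preparation and differ in group, and they carry no test. Pearson's r with and without HS replicate 3 was 0.98 and 0.97 for *Hspa1a* with *Hspa1b*, 0.93 and 0.92 for *Hsph1* with *Hspa8*, and 0.53 and 0.35 for *Dnajb1* with *Hspb1*.

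**Figure D4:**
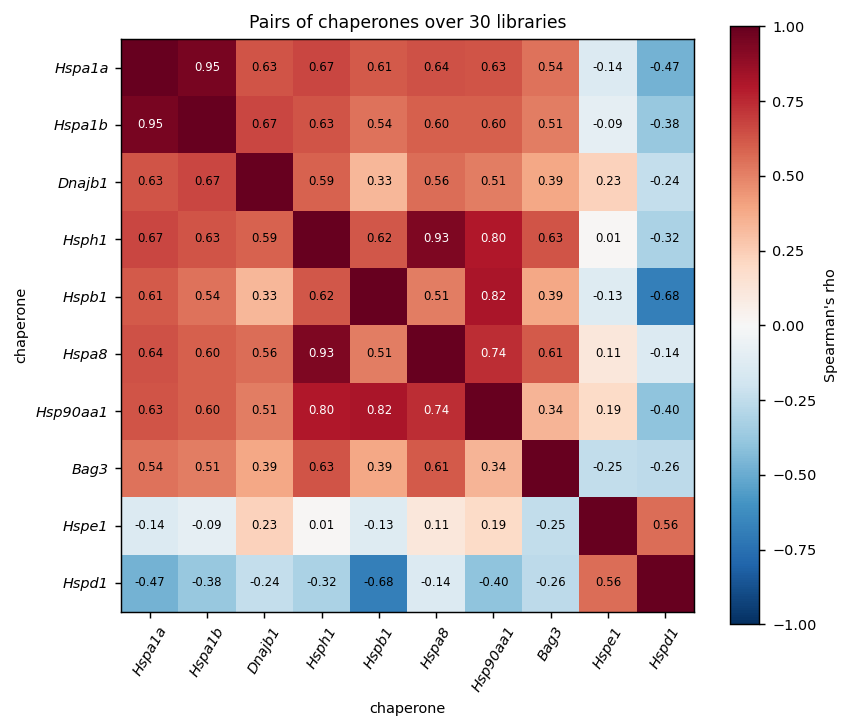
Spearman's rho of each pair of chaperones over the 30 libraries, from -1 (blue) to 1 (red). The block of 8 cytosolic genes is positive throughout, and the rows of *Hspe1* and *Hspd1* are near or below 0 outside their own pair, down to -0.68 for *Hspb1* with *Hspd1*.

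Of the 13524 other genes with a mean of at least 1 CPM, the 10 most alike the averaged standardised level of the chaperones over the 30 libraries were *Dnajb4* (rho 0.88), *Dnaja1* (0.84), *Rcan1* (0.82), *Ccn2* (0.81), *Ifrd1* (0.80), *Net1* (0.80), *Abra* (0.79), *Lats2* (0.77), *Ipo7* (0.77) and *Fosl2* (0.75). *Dnajb4* and *Dnaja1* encode J-domain partners of HSP70, *Rcan1* a calcineurin regulator, *Ccn2* a matricellular growth factor and *Lats2* a Hippo pathway kinase. After group means were removed, the values of *Dnajb4* and *Ccn2* were 0.80 and 0.77. The most opposite genes were *Bmf*, a pro-apoptotic BCL2 relative (-0.83), *Ndufv3*, a complex I subunit (-0.76), and 2810021J22Rik (-0.74).

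In untreated aortas, which served to choose the genes, VEDS libraries had uniformly low levels of the inducible pair. *Hspa1b* was at 32.4, 45.0, 46.6, 46.1, 41.6 and 39.0 CPM in VEDS and at 77.2, 84.0, 150, 57.9, 77.3 and 41.2 CPM in controls. *Hspa1a* was at 38.3 to 62.8 CPM in VEDS (median 46.9) and 44.2 to 146 CPM in controls (median 81.1). The groups overlapped for both, through control replicate 6, and the spread was smaller in VEDS, with an SD of 5.46 CPM against 37.2 CPM for *Hspa1b*. The mitochondrial pair did not share this pattern, with medians of 125 CPM in VEDS and 117 CPM in controls for *Hspd1* and 35.1 and 36.0 CPM for *Hspe1*. 1 untreated VEDS library departed from the low pattern, since *Hspb1* was at 180 CPM in replicate 1 and between 56.2 and 87.4 CPM in the other 5. *Dnajb1* was at 32.1 to 40.7 CPM in VEDS and 33.0 to 62.2 CPM in controls. The study, which compared the genotypes at day 60 alone, listed *Dnajb1* among the transcripts lower in VEDS, beside *Jun*, *Ptgs2*, *Tlr4* and *Atf3*. The contrast here pools day 30 and day 60. EdgeR called 0% of 12976 genes in it (394 at an unadjusted p under 0.05) and DESeq2 0. For the difference of the hydralazine effect between genotypes, the second contrast behind the choice, edgeR called 0% of 13407 genes (440 at an unadjusted p under 0.05) and DESeq2 0.

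Under hydralazine the 2 genotypes had overlapping levels. *Hspa1b* ran from 44.9 to 172 CPM in VEDS (median 59.5) and from 45.7 to 160 CPM in controls (median 68.9), each range set by the single high library named above. The median log2 difference of the 10 genes was -0.072, beside -0.0056 for all genes, and no group separation was seen for any of them. As these 12 libraries entered the second contrast behind the choice, no test is read from them. EdgeR called 0 of the 10 chaperones and 0% of 12966 genes between genotypes under hydralazine (602 at an unadjusted p under 0.05, 0 of them chaperones, and 1 gene by DESeq2).

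VEDS aortas on hydralazine had higher values than untreated VEDS aortas for 8 of 10 chaperones, with a median log2 difference of 0.24 beside 0.0076 for all genes. The largest differences were those of *Hspa1b* (0.90 ± 0.30 SE, n = 6 per group) and *Hspa1a* (0.86 ± 0.26). They rested in part on VEDS hydralazine replicate 6, without which they were 0.50 and 0.51. *Hspa8* stood at 1132 to 1695 CPM on hydralazine and 892 to 1285 CPM untreated, with overlap. EdgeR called 0% of 13006 genes here (589 or 4.53% at an unadjusted p under 0.05, 4 of them chaperones) and DESeq2 called 2. These libraries are also those of the contrast that chose the genes, so no test is read from them. In controls the median difference with hydralazine was 0.022, beside 0.0084 for all genes, and edgeR called 0 of 10 chaperones and 0% of 12951 genes (1230 at an unadjusted p under 0.05, none a chaperone, and 11 by DESeq2).

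In HB aortas the inducible HSP70 transcripts were high in all 3 libraries. *Hspa1b* stood at 225, 182 and 166 CPM and *Hspa1a* at 241, 206 and 169 CPM in the 3 HB libraries. Each value was above all 6 untreated VEDS libraries, whose highest values were 46.6 and 62.8 CPM. Against untreated VEDS, the log2 fold change was 2.18 ± 0.13 for *Hspa1b* (4.55-fold, edgeR quasi-likelihood test, adjusted p = 0.000112) and 2.06 ± 0.16 for *Hspa1a* (4.18-fold, adjusted p = 0.000919), n = 3 and 6. These were the smallest and second smallest p-values of the 13204 genes tested, and the calls held without each of the 9 libraries in turn. The 2 calls among 10 chaperones compare with 0.409% of genes called, 28 of 54 in the same direction (0.212%). Because untreated VEDS was the low side of the contrast that chose the genes, part of this distance was known beforehand. The p-values, their ranks and the stability of the calls are therefore a description and no independent support.

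The other cytosolic genes were also higher in HB than in untreated VEDS, by smaller amounts and without a call. *Dnajb1*, the J-domain partner, was at 80.1, 49.4 and 46.6 CPM in HB and 32.1 to 40.7 CPM untreated. *Hspa8* was at 1709, 1882 and 1336 CPM in HB and 892 to 1285 CPM untreated. Neither overlapped, so that 4 of 10 chaperones were separated upward, beside 4.89% of genes. *Bag3* was at 42.9, 40.9 and 29.1 CPM in HB and 18.7 to 31.2 CPM untreated, and its log2 fold change of 0.73 ± 0.18 missed the threshold (adjusted p = 0.0970). That of *Hspa8* was 0.58 ± 0.14 (adjusted p = 0.0997), and those of *Hsph1* and *Dnajb1* were 0.76 ± 0.21 and 0.66 ± 0.17 (adjusted p = 0.124 and 0.105), all by edgeR. *Hspb1* had a log2 fold change of 0.70 ± 0.34 (adjusted p = 0.344 by edgeR), which became 1.05 with an adjusted p of 0.0148 without the high untreated VEDS replicate 1. Without that library 5 chaperones were called, beside 4.02% of genes. DESeq2 on all 9 libraries called 6 (*Hspa1a*, *Hspa1b*, *Dnajb1*, *Hsph1*, *Hspa8* and *Bag3*), beside 4.27% of genes. Since the chaperones were chosen as low in untreated VEDS, the shares of all genes are no like comparison for these counts.

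The mitochondrial pair lay on the other side of 0. *Hspd1* was at 95.4, 117 and 88.4 CPM in HB and 100.5 to 155 CPM untreated, with a log2 fold change of -0.31 ± 0.14. *Hspe1* was at 31.1, 34.5 and 27.7 CPM in HB and 32.5 to 49.4 CPM untreated, with a log2 fold change of -0.26 ± 0.14. Both missed the threshold (edgeR, adjusted p = 0.304 and 0.380) and both overlapped. The median of all 10 chaperones was 0.68, beside -0.015 for all genes tested.

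Measured against VEDS aortas on hydralazine alone, which share the hydralazine exposure but also entered the second contrast behind the choice of genes, the distance of HB was smaller. *Hspa1b* was at 47.9, 69.8, 44.9, 80.5, 49.2 and 172 CPM on hydralazine, so that replicate 6 lay above the lowest HB library. The log2 fold change was 1.29 ± 0.37 for *Hspa1b* and 1.22 ± 0.32 for *Hspa1a* (edgeR, adjusted p = 0.139 and 0.124, n = 3 and 6). Without VEDS hydralazine replicate 6 both passed the threshold, at 1.69 (adjusted p = 0.0127) and 1.56 (adjusted p = 0.00385), beside 0.273% of genes. *Bag3* differed by 0.54 ± 0.14 (adjusted p = 0.125) and *Hsph1* by 0.50 ± 0.21 (adjusted p = 0.286). In all, 8 of 10 chaperones were higher (median 0.41, beside -0.0041 for all genes). EdgeR called none of them and 0.0151% of genes, and 4 of the 10 were under 0.05 before adjustment, beside 15.5% of genes. DESeq2 called *Hspa1a* and *Bag3*, beside 4.33% of genes.

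**Figure D5:**
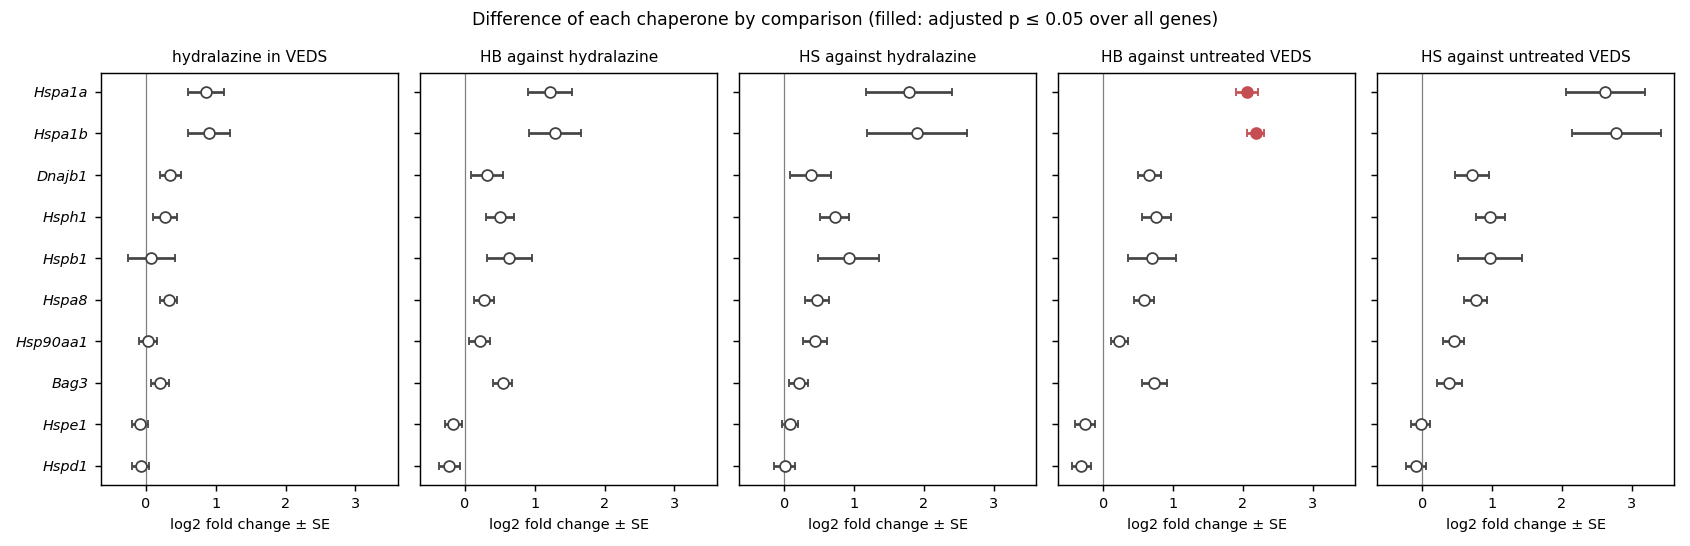
Log2 fold change ± SE of each chaperone (rows) in 5 comparisons (panels), with red filled points for an adjusted p of 0.05 or less over all genes. Only *Hspa1a* and *Hspa1b* in HB against untreated VEDS are filled, at 2.06 and 2.18, and *Hspe1* and *Hspd1* lie between -0.31 and 0.08 in every panel.

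For HS the group differences of the inducible pair were as large but rested on 1 library. Against untreated VEDS the log2 fold change was 2.78 ± 0.64 for *Hspa1b*, 2.62 ± 0.57 for *Hspa1a*, 0.97 ± 0.21 for *Hsph1* and 0.77 ± 0.17 for *Hspa8* (edgeR, adjusted p = 0.126, 0.110, 0.108 and 0.111). Without HS replicate 3 these were 0.93, 1.06, 0.71 and 0.57, and the median of the 10 genes went from 0.74 to 0.24, beside -0.011 for all genes. *Hsph1*, the HSP110 exchange factor, was nevertheless high in all 3 HS libraries, at 102, 105 and 167 CPM against 45.3 to 82.4 CPM untreated and 50.7 to 95.8 CPM on hydralazine alone. *Hspa8* was also separated from untreated VEDS, at 1787, 1450 and 2375 CPM. These 2 of 10 genes compare with 2.42% of genes separated upward. EdgeR called 0 of 10 chaperones and 0.309% of genes, and 6 of the 10 stood at an unadjusted p under 0.05, beside 11.1% of genes. By DESeq2 *Hspa1a*, *Hspa1b*, *Hsph1* and *Hspa8* were called, beside 2.22% of genes. Without HS replicate 1, the library with untreated levels of *Hspa1b*, edgeR called 2, *Hspa1a* and *Hspa1b* (adjusted p = 0.0475 for both), beside 0.0964% of genes. As untreated VEDS was the low side of the contrast that chose the genes, part of these distances was known beforehand. The p-values and the counts beside shares of all genes are therefore a description.

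Against hydralazine alone, HS differed by 1.90 ± 0.71 for *Hspa1b* and 0.72 ± 0.21 for *Hsph1* (edgeR, adjusted p = 0.338 and 0.332). Without HS replicate 3 the value of *Hspa1b* was 0.05 and that of *Hsph1* was 0.46, and with 1 surrogate variable in the fit, an estimated hidden factor, *Hspa1b* turned to -0.32 and *Hspa1a* to -0.11. *Hsph1* was the only chaperone whose groups did not overlap, 1 of 10 beside 3.05% of genes. EdgeR called none of the 10 and 0% of 13304 genes (1805 or 13.6% at an unadjusted p under 0.05, 5 of them chaperones, and 54 by DESeq2, none a chaperone). The hydralazine libraries also entered the second contrast behind the choice of genes, so these values are a description.

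HS and HB, the 2 combination therapies collected at 1 age and with no library in the contrasts that chose the genes, were compared directly. The log2 difference of HS from HB was 0.60 ± 0.83 for *Hspa1b* and -0.33 ± 0.18 for *Bag3* (edgeR, adjusted p = 0.905 and 0.779, n = 3 per group). *Bag3* was at 25.4, 27.6 and 36.1 CPM in HS, and the groups overlapped. The median over the 10 genes was 0.23 and turned to -0.25 without HS replicate 3. EdgeR called 0 chaperones and 0% of 12800 genes (855 at an unadjusted p under 0.05, none a chaperone, and 35 by DESeq2), which does not show that the groups were alike.

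The wider chaperone network was described by the same counts, which cannot be set against those of genes chosen for low levels in untreated VEDS. Of 33 other cytosolic chaperones and HSF1 pathway genes, 28 were higher in HB than in untreated VEDS with a median log2 difference of 0.19, and 0 were called. The smallest p-values belonged to *Hspb7*, a small heat shock protein of muscle (0.78 ± 0.16, edgeR, adjusted p = 0.0649), *Hspa2*, an HSP70 relative (0.50 ± 0.11, adjusted p = 0.0760), and *Dnajb4* (0.76 ± 0.21, adjusted p = 0.122). For HS, 24 of 33 were higher (median 0.14, 0 called), with *Dnajb4* at 0.79 ± 0.24. The median of *Dnajb4* was 507 CPM in HB, 383 CPM in HS and 283 CPM in untreated VEDS.

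The mitochondrial and endoplasmic reticulum lists did not follow the cytosolic genes. Of 10 mitochondrial chaperones and proteases, not counting *Hspd1* and *Hspe1*, 9 were lower in HB than in untreated VEDS (median -0.27) and 8 in HS (median -0.22), with 0 called. *Lonp1*, the matrix protease, was nearest to the threshold, at 52.1 to 54.8 CPM in HB and 48.6 to 52.5 CPM in HS against 61.8 to 67.2 CPM untreated (log2 difference -0.27 ± 0.06 and -0.36 ± 0.06, edgeR, adjusted p = 0.0684 and 0.0502). Of 19 endoplasmic reticulum chaperones, 9 were higher and 10 lower in HB (median -0.03), and 7 higher and 12 lower in HS (median -0.06), with 0 called. The 8 subunits of the cytosolic chaperonin TRiC were split 4 and 4 in HB and were all higher in HS (median 0.10, 0 called). The 2 cold-inducible RNA-binding proteins, *Cirbp* and *Rbm3*, had log2 differences of 0.013 to 0.14 in HB and HS.

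Immediate early genes, which respond within minutes to handling, stretch or growth signals, were higher beside the chaperones. In HB, 23 of 24 measured were higher than in untreated VEDS (median 0.62) and 4 were called by edgeR, namely *Atf3* (1.82 ± 0.22, adjusted p = 0.0124), *Jun* (0.80 ± 0.13, adjusted p = 0.0407), *Ptgs2* (1.33 ± 0.22, adjusted p = 0.0427) and *Jund* (0.77 ± 0.13, adjusted p = 0.0431). Of all genes, 0.409% were called and 52.82% were lower in that comparison. *Atf3* was at 70.1 to 86.9 CPM in HB, 14.5 to 30.3 CPM in untreated VEDS and 20.5 to 66.1 CPM on hydralazine. In untreated controls *Atf3* was at 16.9 to 60.5 CPM. Untreated VEDS was the low side for these genes too, with 21 of 24 lower than in untreated controls (median -0.125, 0 called). The study had also listed *Atf3*, *Jun* and *Ptgs2* as lower in VEDS at day 60. This list was chosen with earlier results known. Its p-values and its counts beside shares of all genes, in HB and in HS, are therefore a description. In HS, 24 of 24 were higher than in untreated VEDS (median 0.68). *Klf2*, a flow-responsive factor, was called there by edgeR (0.84 ± 0.13, adjusted p = 0.0440), beside 0.309% of all genes. Their summed level was 1264 to 1364 CPM in HB, 744 to 967 CPM in untreated VEDS and highest of all libraries in HS replicate 3 at 1820 CPM. The part of these genes in the chaperone differences was not tested.

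Clock genes and markers of other tissues were compared in the same way. Of 15 measured clock genes 11 were higher in HB than in untreated VEDS (median 0.48) and 12 in HS (median 0.16), with 0 called in either. *Nr1d1* was at 64.0 to 107 CPM in HB, 15.1 to 55.1 CPM in untreated VEDS and 19.7 to 59.3 CPM in HS. The 7 brown fat markers summed to 215 to 465 CPM in HB and 189 to 462 CPM in HS against 494 to 1290 CPM in untreated VEDS, with 6 of 7 lower in each comparison. The 8 liver markers summed to 698 to 918 CPM in HB, 248 to 2096 CPM in HS and 167 to 16810 CPM in untreated VEDS, the widest range of all, and all 8 were lower in each comparison (median -2.48 in HB and -2.15 in HS). All 5 red cell markers were lower in HB (median -1.57), with sums of 130 to 316 CPM against 272 to 1260 CPM, and 4 of 5 were lower in HS (median -0.46). All 7 white fat markers were lower in HB (median -0.94), with sums of 164 to 478 CPM against 515 to 983 CPM, and 5 of 7 in HS (median -0.29). All 7 smooth muscle markers were higher in HB (median 0.26), with sums of 25320 to 28020 CPM against 17120 to 29730 CPM. The 7 heart markers summed to 257 to 840 CPM in HB and 142 to 259 CPM in untreated VEDS. All 6 of those tested were higher in HB (median 3.39). Among them, *Myh6* differed by 4.42 ± 1.11, with medians of 41.05 CPM in HB and 4.93 CPM in untreated VEDS. In HS, 2 of the 5 tested were higher and 3 lower (median -0.73). Without HB replicate 2, the highest for heart markers, the log2 fold change of HB was 2.22 for *Hspa1b* and 2.06 for *Hspa1a*. None of these lists had a gene called, and the part of the clock genes and the other markers in the chaperone differences was not tested.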

How the data were processed

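Total RNA of 30 mouse aortas was sequenced. The labels say that the adventitia was stripped, and the study's methods that perivascular fat was removed. Per the labels and the study's methods, the authors prepared TruSeq stranded libraries. Base calls were converted with CASAVA 1.8.4 per the submitters' processing notes, and the authors quantified RefSeq genes on mm39 with RSEM. The deposited files hold an expected count and a TPM per gene, and 97.6% of expected counts were whole numbers within a tolerance of 1e-06. Counts were rounded. A comparison used only the libraries of its groups. The quasi-likelihood F-test of edgeR 4.0.16 (R 4.3.3) was run after TMM scaling and the default low-count filter, and a gene was called at a Benjamini-Hochberg adjusted p of 0.05 or less over all genes tested. DESeq2 1.42.0 and 1 surrogate variable from sva 3.50.0 were alternatives, and the fit was tested on simulated data. Libraries of a group are separate mice, numbered in accession order.

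The chaperones and all lists were chosen with earlier results of these data known. Besides the chaperones, the genes named were the called genes of a list (at most 6) or the 3 of smallest p, *Col3a1*, *Myh11* and the genes most alike or opposite in level. A library was said to stand apart by Dixon's test in groups of 6, or where it exceeded the next of 30 by over 1.5 times. Other alternatives were median-ratio size factors, library totals, 2 other filters, 1 fit of all libraries, the *Hspa1a* and *Hspa1b* sum and leaving libraries out.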

Additional observations from a re-analysis of the deposited data

Results flagged for a closer look

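In groups of 6 libraries, 7 of the 40 sets of values tested (10 chaperones in 4 groups) had an end library farther from its neighbour than Dixon's 95% limit allows. All 7 were at the high end. Chance flags about 1 in 20 only where the sets are independent and normally distributed. The values here were CPM without a log scale, of genes that vary together and in groups that mix ages. The number of flags is therefore a description. *Hspa1a* and *Hspa1b* were both high in control hydralazine replicate 2, at 170.5 and 160 CPM, where the next libraries held 103 and 87.4 CPM. Both were also high in VEDS hydralazine replicate 6, at 181 and 172 CPM, where the next held 86.9 and 80.5 CPM. As the pair shares reads, these 4 flags describe 2 libraries. *Hspb1* stood at 180 CPM in VEDS untreated replicate 1, above 87.4 CPM. *Bag3* stood at 31.8 CPM in VEDS hydralazine replicate 4, above 25.8 CPM. *Hspe1* stood at 49.4 CPM in VEDS untreated replicate 4, above 35.8 CPM. The groups of 3, in which HS replicate 3 stands apart, were not tested in this way.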

How the results depend on the processing

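The 2 chaperone calls in HB against untreated VEDS remained under each alternative run, as 1 call when *Hspa1a* and *Hspa1b* were summed. All of these runs draw on the untreated VEDS libraries that served to choose the genes. DESeq2 called 6 chaperones there (564 of 13204 genes), 2 in HB against hydralazine (575 of 13266) and 4 in HS against untreated VEDS (295 of 13276), and 1 fit of all libraries called 3 in the last (141 of 13811). Leaving out 1 library at a time gave 2 to 5 calls in HB against untreated VEDS (5 without VEDS untreated replicate 1), 0 to 2 in HB against hydralazine (2 without VEDS hydralazine replicate 6) and 0 to 2 in HS against untreated VEDS (2 without HS replicate 1). The other 7 comparisons had 0 chaperone calls under all alternatives.

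The median log2 difference of the chaperones in HS against hydralazine was 0.45, with 0.089 under 1 surrogate variable and 0.087 to 0.58 leaving out 1 library. A further alternative left out HS replicate 3, HB replicate 2 and control hydralazine replicate 5 together, the libraries doubted for their chaperone or heart marker levels, of which HS replicate 3 alone is in that comparison (0.087). In HS against untreated VEDS it was 0.24 without those libraries and 0.24 to 0.90 leaving out 1, and in HS against HB it was -0.16 and -0.25 to 0.34, the lowest without HS replicate 3 in each case. Leaving out 1 library gave 0.34 to 0.58 in HB against hydralazine and 0.60 to 0.83 in HB against untreated VEDS. With 1 surrogate variable, *Hspa1a* and *Hspa1b* in HS against hydralazine reversed to -0.11 and -0.32, and the cause was not tested. No paired analysis was possible because replicate numbers follow accession order and no label pairs the mice. HB and HS rest on 3 libraries each, and age and extraction batch could not enter any fit.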
